A study of Mus musculus with 26 samples.

Results

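Replication licensing loads the Mcm2 to Mcm7 helicase onto DNA before S phase, so that each origin can fire once. Transcripts of the 6 helicase subunits and of the loading factors Cdt1 and Cdc6 were followed across a mouse osteosarcoma series. Osteosarcoma is a malignant tumour of the bone-forming lineage. All 23 probe sets that the array annotation gives to these 8 genes and to no other gene were taken, of 45037 probe sets on the array. A probe set entered the tests when 3 or more arrays exceeded the overall median signal, a log2 intensity of 5.72. That left 20 licensing probe sets among 27308. The other 3 probe sets, 1459658_at of Mcm5, 1447756_x_at of Mcm6 and 1455791_at of Cdt1, lay above that median on 0 arrays.

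The 26 arrays hold 4 osteosarcoma cell lines, 4 secondary tumours, 15 primary osteosarcomas and, as control, 3 cultures of wild type (WT) osteoblasts differentiated in vitro, 1 sample to an array. The secondary tumours carry the code OPflR, which the labels do not explain. Numbers 29, 64 and 94 are labelled as transplants, while number 66 is labelled as tumour tissue that came from a cell line and is titled as a cell line. Number 66 is counted here among the secondary tumours. The labels used here state neither the tumours' genotype nor strain, sex or age. They also do not say that the 3 cultures are separate animals, so the spread between the cultures may be technical. The p-values against osteoblasts use a spread pooled over the 4 groups on all 26 arrays. They do not measure how osteoblasts of separate animals vary.

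In G1 the origin recognition complex (Orc1 to Orc6) binds DNA, Cdc6 joins it, and Cdt1 brings the Mcm ring, which is loaded as a double hexamer. Geminin (Gmnn) blocks Cdt1, and the ubiquitin ligases that use Dtl and Skp2 destroy Cdt1 in S phase. The kinase Cdc7 with Dbf4 then phosphorylates the loaded ring, and Cdc45 turns it into the active helicase. Transcription of these genes is driven by E2F factors, which the retinoblastoma protein (Rb1) restrains.

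Promoter windows are shown because E2F binding sites are what these genes are known to share. RefSeq windows of assembly GRCm38.p6, from 250 bases before to 50 bases after the start, were matched for 7 genes (8 windows, of which Mcm7 has 2); Mcm4 is named only. Those of Mcm3, Mcm6, Cdt1, Cdc6 and Mcm2 are printed 5′ to 3′ on the gene's strand, and those of Mcm5 and Mcm7 are described without their letters. Capitals mark an E2F word, here TTTCCCGC, TTTCGCGC, TTTGCCGC or TTTGGCGC on either strand.
Mcm3 (chr1:20820263-20820562, minus strand): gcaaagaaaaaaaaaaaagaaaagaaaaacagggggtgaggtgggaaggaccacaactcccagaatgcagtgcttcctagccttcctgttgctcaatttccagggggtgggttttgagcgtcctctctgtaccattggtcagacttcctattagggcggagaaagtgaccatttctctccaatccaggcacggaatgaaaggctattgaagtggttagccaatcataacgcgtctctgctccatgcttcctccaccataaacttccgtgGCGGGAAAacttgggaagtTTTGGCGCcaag
Mcm6 (chr1:128359656-128359955, minus strand): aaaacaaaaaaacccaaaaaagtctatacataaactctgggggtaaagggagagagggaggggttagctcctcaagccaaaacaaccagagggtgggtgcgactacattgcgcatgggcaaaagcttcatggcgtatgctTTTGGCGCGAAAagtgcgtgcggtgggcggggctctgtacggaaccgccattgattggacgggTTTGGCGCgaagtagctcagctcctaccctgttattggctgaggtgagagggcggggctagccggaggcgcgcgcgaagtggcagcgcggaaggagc
Cdt1 (chr8:122567765-122568064, plus strand): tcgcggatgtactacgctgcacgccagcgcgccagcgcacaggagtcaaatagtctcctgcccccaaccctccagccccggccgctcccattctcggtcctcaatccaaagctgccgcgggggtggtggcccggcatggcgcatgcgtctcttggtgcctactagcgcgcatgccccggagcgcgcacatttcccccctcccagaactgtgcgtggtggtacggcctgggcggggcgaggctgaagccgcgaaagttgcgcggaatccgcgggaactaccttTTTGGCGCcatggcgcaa
Cdc6 (chr11:98907901-98908200, plus strand): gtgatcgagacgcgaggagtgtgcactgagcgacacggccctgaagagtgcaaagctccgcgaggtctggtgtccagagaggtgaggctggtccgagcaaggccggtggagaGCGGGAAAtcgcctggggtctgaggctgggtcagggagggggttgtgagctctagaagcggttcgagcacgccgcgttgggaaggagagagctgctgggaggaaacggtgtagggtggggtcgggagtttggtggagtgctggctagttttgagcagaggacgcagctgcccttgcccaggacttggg
Mcm2 (chr6:88898731-88899030, minus strand): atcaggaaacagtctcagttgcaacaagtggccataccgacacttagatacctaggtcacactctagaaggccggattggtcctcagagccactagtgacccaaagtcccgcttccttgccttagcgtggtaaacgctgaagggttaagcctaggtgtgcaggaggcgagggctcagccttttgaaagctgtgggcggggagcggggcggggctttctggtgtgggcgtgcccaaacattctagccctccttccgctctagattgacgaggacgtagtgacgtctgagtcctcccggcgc

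An E2F word stood in 6 of the 8 windows. These belong to 6 of the 7 genes, Mcm3, Mcm5, Mcm6, Mcm7, Cdt1 and Cdc6, and 1 of the 2 Mcm7 windows held none. Of all 32851 mouse windows of the same length, 2.26% held 1. Cdc6 and Cdt1 held 1 such word each. Mcm2 held none of these letters in its window. In Mcm5 and Mcm6 a pair of E2F words on opposite strands overlapped. The CCAAT word (either strand) stood in 6 of the 8 windows, from 5 of the 7 genes, and in 37.4% of all windows. In Mcm7 it shared a base with an E2F word. These are matches of letters, no binding was measured, and their part in the levels below was not tested.

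The arrays were parted by a ratio of hybridisation controls at a cut of 0.6, and the osteoblast arrays, under that cut, are named apart. Array medians ran between 44.4 and 58.8 intensity units. The ratio of the bacterial controls bioB to bioC was 0.827 to 0.955 on 12 arrays (all 4 lines and 8 primary tumours), 0.291 to 0.337 on 11 arrays (all 4 secondary and 7 primary tumours) and 0.357 to 0.387 on the 3 osteoblast arrays. These are called the high, the low and the osteoblast set. The osteoblast set is drawn by group, since its ratios lay close above those of the low set. In fits with the control set as a term it was counted as low. With osteoblasts named apart, set and group cannot be told apart against them, and lines and secondary tumours never share a set. Counted as low, the osteoblasts share a set with no line. Values from 1 set of tumours are given beside the results. Against osteoblasts these are not taken as within-set values, since the cultures are named apart from both sets. The ratio of the 5′ to the 3′ Gapdh control, a sign of RNA integrity, was 1.04 to 1.08 in lines, 0.839 to 1.08 in secondary tumours, 0.909 to 1.03 in primary tumours of the high set and 0.656 to 0.845 in those of the low set, against 0.916 to 0.967 in osteoblasts. Its part in the results was not tested. Scaling each array on its 75th percentile moved the median difference of all probe sets to 0.11 for lines over osteoblasts, against -0.06 as deposited, and to 0.14 for primary tumours over osteoblasts, against 0.04.

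Across the 4 groups the brightest probe sets of the licensing genes followed a single order with 1 exception. For 7 of the 8 genes, each read by its brightest kept probe set, the mean log2 intensity was highest in cell lines, then in secondary tumours, in primary tumours and in osteoblasts. Cdc6 was the exception: its mean was highest in osteoblasts, followed by lines, secondary tumours and primary tumours. The step between secondary and primary tumours rested on 1 array: without secondary tumour 29 the secondary mean lay below the primary one for 4 of the 7 genes, Mcm3 (9.59 against 9.75), Mcm4 (9.203 against 9.21), Mcm5 (8.805 against 8.84) and Cdt1 (8.885 against 8.89). Not every other probe set kept that order: Mcm4 1436708_x_at measured 8.94 in secondary tumours against 8.91 in lines. Mcm3 1420029_at measured 6.90 in lines, against 7.14 in secondary and 7.07 in primary tumours. Lines over secondary tumours, which never share a set, were positive on 18 of 20 probe sets, and on 11 without secondary tumour 66. Lines and secondary tumours, and secondary and primary tumours, are neighbours in this order and did not part on any licensing probe set. Primary tumours and osteoblasts parted for Cdt1, Mcm2, Mcm3 and Cdc6. Differences were tested with limma over all 27308 kept probe sets. A probe set counted as called when its Benjamini-Hochberg adjusted p was below 0.05 and its 2 group means differed 2-fold or more, a log2 difference of 1.

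**Figure D1:**
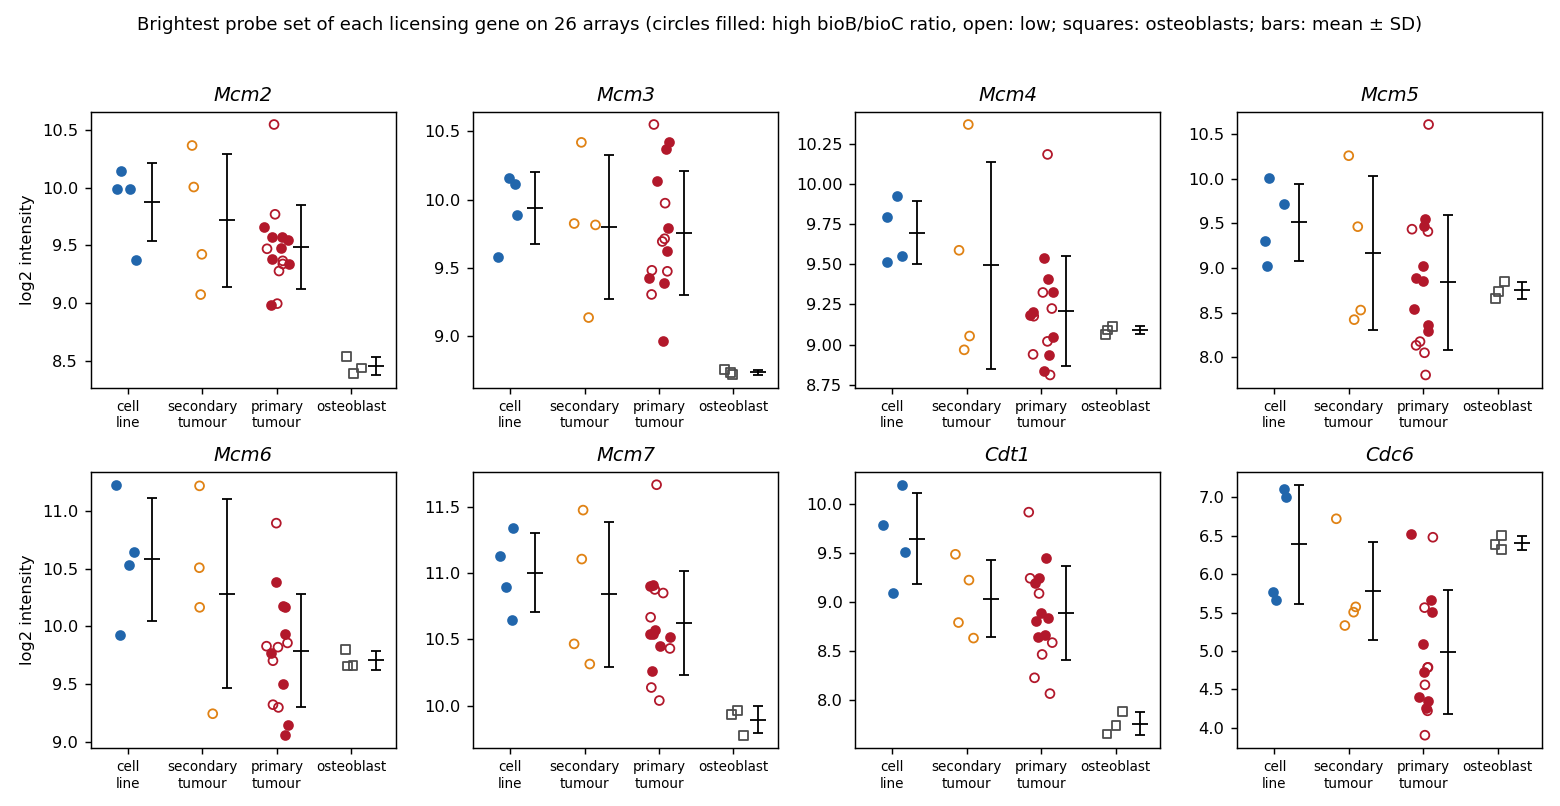
Log2 intensity of the brightest kept probe set of each licensing gene on all 26 arrays, 1 point per array, with the mean ± SD of each group beside its points. Circles are filled for the high and open for the low set of the control ratio, and squares are osteoblasts; Cdt1 lies above all 3 osteoblast cultures on every other array, while Cdc6 lies between 3.91 and 6.53 in primary tumours against 6.32 to 6.51 in osteoblasts.

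Cdt1, the factor that escorts the Mcm ring to origins, was higher in all 3 kinds of osteosarcoma sample. Its log2 intensity (probe set 1424143_a_at) was 9.52, 9.79, 9.09 and 10.20 in lines 176, 179, 182 and 213, 9.49, 9.23, 8.79 and 8.63 in secondary tumours 29, 64, 66 and 94, and 8.07 at lowest, 8.84 at the median and 9.92 at highest in primary tumours, against 7.89, 7.74 and 7.65 in osteoblast cultures 1, 2 and 3. No osteosarcoma array overlapped the osteoblasts. The log2 difference from osteoblasts was 1.89 ± 0.33 (SE) in lines, 1.28 ± 0.33 in secondary tumours and 1.13 ± 0.27 in primary tumours, with limma adjusted p of 0.00035, 0.00366 and 0.0016. That is a 3.70-fold, 2.42-fold and 2.19-fold higher signal. The other kept Cdt1 probe set, 1424144_at, gave differences of 2.11, 1.56 and 1.34 in the same order of groups, each called. Primary tumours of the high set stood 1.21 above osteoblasts and those of the low set 1.04, both called.

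Mcm2, the subunit whose tail binds histones and is phosphorylated by Cdc7, rose in all 3 comparisons as well. On 1434079_s_at it measured 9.98, 10.14, 9.38 and 9.99 in lines 176, 179, 182 and 213, 10.36, 9.07, 9.42 and 10.005 in secondary tumours 29, 64, 66 and 94, and 8.98 at lowest, 9.47 at the median and 10.55 at highest in primary tumours, against 8.54, 8.44 and 8.39 in the cultures. The osteoblasts lay below all other arrays. The differences from osteoblasts were 1.42 ± 0.29 in lines, 1.26 ± 0.29 in secondary tumours and 1.03 ± 0.24 in primary tumours (SE; adjusted p 0.00145, 0.00124 and 0.000999, limma). The primary-tumour call sat at the fold limit, since it was 0.96 without tumour 29, 0.998 without culture 3 and 0.99 for the primary tumours of the high set, each still past the p threshold but under the 2-fold limit. The second probe set, 1448777_at, was called in lines (1.58) and secondary tumours (1.05, and 0.78 with no call without secondary tumour 29) and measured 0.82 in primary tumours, where it overlapped the osteoblasts.

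Mcm3, another ring subunit, had 5 kept probe sets, and 4 of them lay between 1.10 and 1.48 in lines over osteoblasts. The brightest, 1426653_at, read 10.15, 9.89, 9.58 and 10.12 in lines 176, 179, 182 and 213, 10.42, 9.82, 9.13 and 9.81 in secondary tumours 29, 64, 66 and 94, and 8.96 at lowest, 9.69 at the median and 10.55 at highest in primary tumours, against 8.73, 8.71 and 8.75 in the cultures. Here too the osteoblasts lay below every other array. Its differences from osteoblasts were 1.20 ± 0.31 in lines, 1.07 ± 0.31 in secondary tumours and 1.02 ± 0.26 in primary tumours (SE; limma adjusted p 0.0116, 0.00914 and 0.00244). Without secondary tumour 29 the secondary-tumour difference was 0.86, under the fold limit. The primary-tumour difference was 0.96 without tumour 29, 0.99 without 183, 0.98 without 188 and 0.97 without 330, each under that limit too. Of the 5 probe sets 4 were called in lines, 3 in secondary tumours and 1 in primary tumours. The one that stood apart, 1420029_at, measured 0.18, 0.42 and 0.34 in lines, secondary tumours and primary tumours over osteoblasts, and was called in none.

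Mcm7, a ring subunit that sits beside Mcm3 in the hexamer, rose on every probe set in lines. Probe set 1438320_s_at gave 10.90, 11.34, 10.64 and 11.13 in lines 176, 179, 182 and 213, 11.47, 11.10, 10.31 and 10.47 in secondary tumours 29, 64, 66 and 94, and 10.04 at lowest, 10.54 at the median and 11.67 at highest in primary tumours, against 9.94, 9.97 and 9.78 in the cultures. No array of the other groups overlapped the osteoblasts. The difference was 1.11 ± 0.29 in lines (SE; limma adjusted p 0.0121, called). It was 0.95 ± 0.29 in secondary tumours and 0.73 ± 0.24 in primary tumours, past the p threshold (0.0122 and 0.0155) and under the 2-fold limit. The 4 Mcm7 probe sets ran from 1.11 to 1.43 in lines, from 0.71 to 1.13 in secondary tumours (1 called, 1439269_x_at) and from 0.44 to 0.84 in primary tumours (0 called). With the control set as a term in the model (osteoblasts counted as low), 1416030_a_at and 1416031_s_at measured 0.98 and 0.87 in lines and lost their calls. Without secondary tumour 29 probe set 1439269_x_at measured 0.94 in secondary tumours and lost its call.

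Mcm4, Mcm5 and Mcm6 were called against osteoblasts in no comparison, on either of their 2 kept probe sets. Mcm4 belongs with Mcm6 and Mcm7 to the subcomplex that carries much of the helicase's catalytic activity. Its brightest probe set, 1416214_at, measured 9.70 ± 0.20 (SD, n = 4) in lines, 9.49 ± 0.64 (n = 4) in secondary tumours and 9.21 ± 0.34 (n = 15) in primary tumours, against 9.09 ± 0.03 (n = 3) in osteoblasts. Lines did not overlap the cultures, at a difference of 0.61 ± 0.28 (SE; adjusted p 0.158, limma).

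Mcm5, which forms with Mcm2 the gate of the ring, varied more among tumours than the other Mcm genes. On 1436808_x_at it ran from 9.02 to 10.01 in lines, from 8.42 to 10.26 in secondary tumours and from 7.80 to 10.61 in primary tumours, against 8.66 to 8.85 in osteoblasts. Primary tumours thus lay on both sides of the cultures, with a difference of 0.09 ± 0.42 (SE; limma adjusted p 0.874), and without tumour 29 it was -0.04. For Mcm6 (1416251_at) the means were 10.58 ± 0.53 in lines, 10.28 ± 0.82 in secondary tumours and 9.79 ± 0.49 in primary tumours, against 9.70 ± 0.08 in osteoblasts. Its line difference of 0.88 ± 0.39 had an adjusted p of 0.147; under quantile normalization it was 1.17 and called.

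Cdc6, the loading ATPase, was lower, not higher, in primary tumours. Its only probe set, 1417019_a_at, is the dimmest of the kept ones and passed the filter on 9 arrays, namely 3 lines, 1 secondary tumour, 2 primary tumours and all 3 cultures, so it entered the tests through groups in which it is high. It read 5.77, 7.11, 5.67 and 7.002 in lines 176, 179, 182 and 213, 6.72, 5.33, 5.57 and 5.51 in secondary tumours 29, 64, 66 and 94, and 3.91 at lowest, 4.79 at the median and 6.53 at highest in primary tumours, against 6.32, 6.51 and 6.38 in the cultures. No value was at the floor of 3.64.

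Below all 3 cultures lay 13 of the 15 primary tumours, and tumours 330 and 29 reached their range. Cdc6 fell by 1.42 ± 0.44 in primary tumours against osteoblasts (SE; limma adjusted p 0.0109), a 2.67-fold lower signal. With no filter on dim probe sets the same difference had an adjusted p of 0.0211. It was -1.34 for the primary tumours of the high set and -1.503 for those of the low set, each called. Without osteoblast culture 2 the difference was -1.36 with an adjusted p of 0.0514, so the call was lost. Secondary tumours measured -0.62 ± 0.53 (adjusted p 0.372) and lines -0.02 ± 0.53 (adjusted p 0.994), wide errors that leave a change of either sign possible; the sign for lines turned positive under 75th percentile scaling (0.17).

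**Figure D2:**
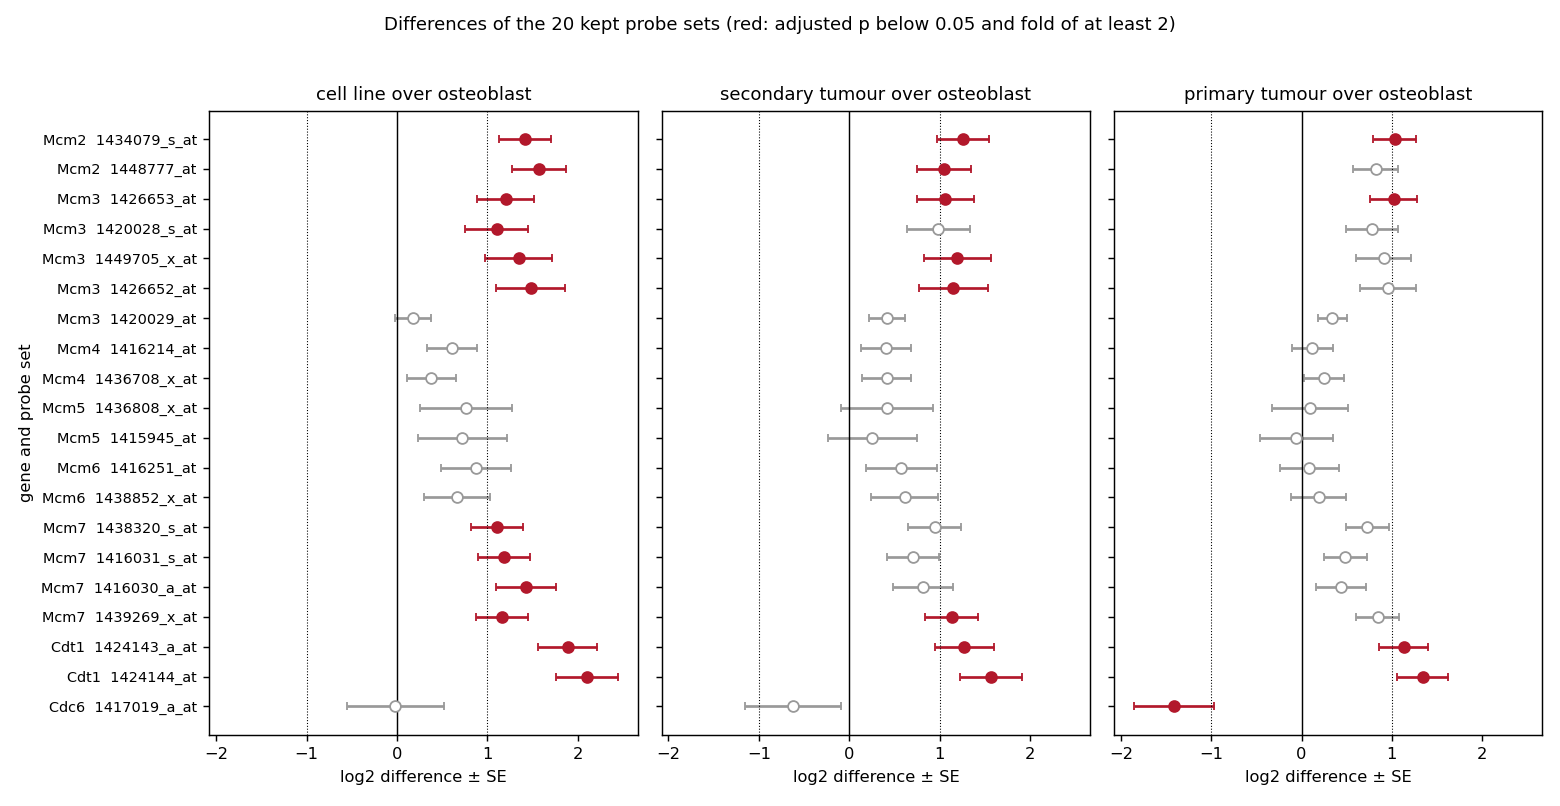
Log2 differences from osteoblasts with limma's SE for all 20 kept licensing probe sets, in cell lines (left), secondary tumours (middle) and primary tumours (right); red filled points passed an adjusted p below 0.05 and a fold of at least 2, marked by the dotted lines. In lines 12 probe sets are filled, in secondary tumours 8 and in primary tumours 5, of which Cdc6 is the only one to the left of 0.

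Counted over all probe sets, lines had 12 of 20 licensing probe sets called higher than osteoblasts and 0 lower, where 1.54% of all probe sets were called higher and 5.82% lower. The 2 groups did not overlap on 18 of 20, with lines higher, where that held for 12.9% of all probe sets. Under 75th percentile scaling the calls over all probe sets split into 762 higher and 1172 lower, into 484 and 1070 under quantile normalization, against 420 and 1588 as deposited. Scaled, 12 licensing probe sets were called. With the control set as a term 7 were called. The median log2 difference of the 20 was 1.13, beside -0.06 for all probe sets. Between secondary tumours and osteoblasts 8 were called higher, and 0 lower, where 12.9% and 10% of all probe sets were called in those directions, and the medians were 0.88 and 0.08. On 14 of 20 they lay apart and higher, against 30.4% of all probe sets. The number called was 3 without secondary tumour 29 and 5 without osteoblast culture 1. In primary tumours 4 were called higher and 1 lower, with 11% and 11.1% of all probe sets called in those directions, and the medians were 0.61 and 0.04. The primary tumours lay apart and higher on 7 of 20, against 12.9% of all probe sets. Without tumour 29 the number called was 2 higher and 1 lower. The 3 comparisons share the same osteoblast arrays. Several probe sets read the same gene: the calls higher fell on 4 genes in lines, 4 in secondary tumours and 3 in primary tumours. The 8 genes were chosen with earlier results of these data known, so the shares beside them are a description and no test.

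Other cell types and the cultures themselves moved with these comparisons. In bulk samples fewer cells of a type and less RNA per cell cannot be told apart. Macrophage markers were higher than in osteoblasts for 12 of 12 genes in both secondary and primary tumours and for 0 of 12 in lines. Their mean log2 level per array was 5.18 to 5.46 in lines, 8.59 to 10.36 in secondary tumours and 8.55 to 10.72 in primary tumours, against 5.34 to 5.51 in osteoblasts, where C1qa was at the floor on all 3 arrays. Lines and osteoblasts both had low macrophage markers. The part of these cells in the licensing differences was not tested in any comparison.

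Endothelial markers were called higher for 6 of 9 genes in both kinds of tumour and for 0 of 9 in lines, where 2 were called lower. Their mean level per array was 5.47 to 5.66 in lines, 6.87 to 8.15 in secondary tumours and 7.18 to 8.35 in primary tumours, against 5.94 to 6.42 in osteoblasts. Skeletal muscle markers were higher for 8 of 10 genes in primary tumours and spread between 4.39 and 10.90 there, with a mean level per array of 4.597 to 8.91 in lines, 4.21 to 4.68 in secondary tumours and 4.63 to 4.69 in osteoblasts. Adipocyte markers were lower in all 3 comparisons for 7 of 7 genes, with a mean level of 5.37 to 7.15 in lines, 5.43 to 7.20 in secondary tumours and 5.14 to 7.26 in primary tumours, against 11.02 to 11.09 in osteoblasts. Osteoblast lineage markers (Sp7, Col1a1, Alpl and Ibsp, the 4 of 6 that were measured) had a mean level of 7.59 to 11.38 in lines, 11.14 to 12.44 in secondary tumours and 8.24 to 12.62 in primary tumours, against 11.05 to 11.27 in the cultures. Of T cell, erythroid and B cell precursor markers 2, 1 and 1 of 6 were measured; the erythroid gene, Alas2, ran from 3.64 to 10.40 in primary tumours. What part these cells had in the licensing results was not tested.

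The ratio between Cdc6 and the other licensing genes within an array is free of any scaling of that array. It was taken after the values above had been seen and is given as a description, with no test. The log2 ratio of Cdt1 to Cdc6 ran from 2.12 to 4.94 with a median of 3.79 in primary tumours, against 1.56, 1.23 and 1.27 in osteoblast cultures 1, 2 and 3. All 15 primary tumours lay above all 3 cultures, and the same held for each of the 6 Mcm genes and for 22.3% of all other kept probe sets. The mean ratio was higher in primary tumours by 2.55 for Cdt1, 2.45 for Mcm2, 2.44 for Mcm3 and 2.15 for Mcm7, and by 1.54, 1.51 and 1.501 for Mcm4, Mcm5 and Mcm6. The median over all other kept probe sets was 1.45, which the ratios of Mcm4, Mcm5 and Mcm6 lay close to.

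**Figure D3:**
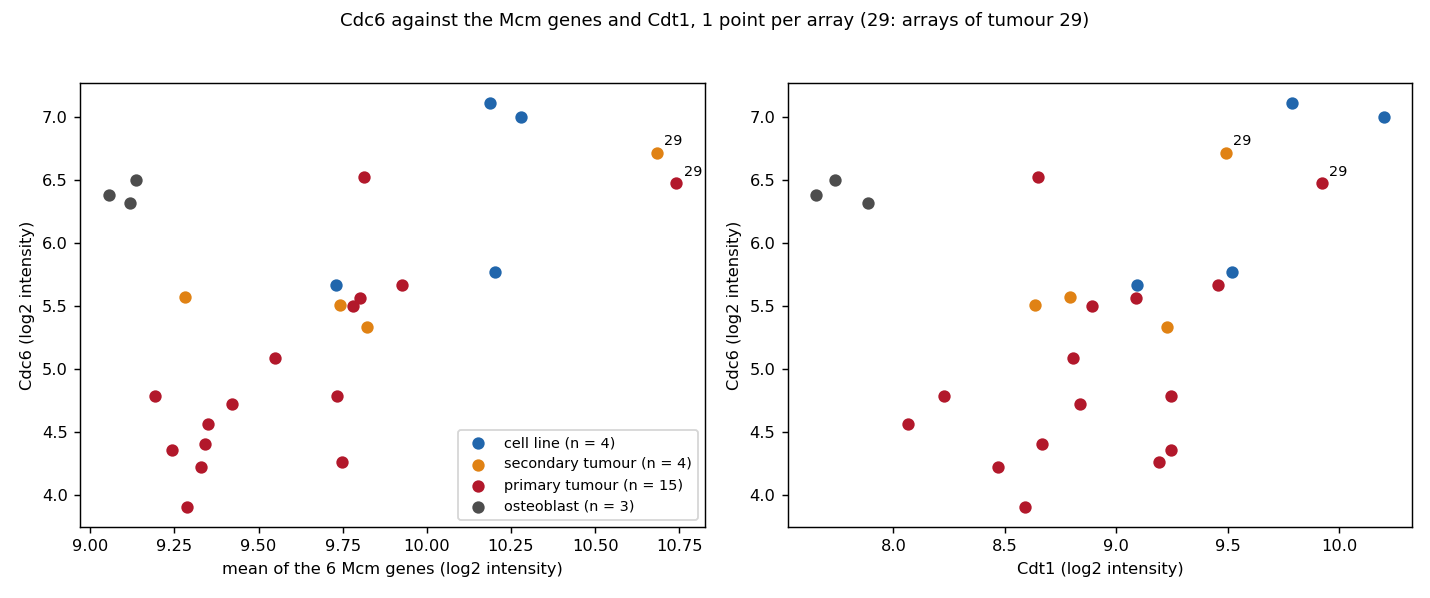
Cdc6 log2 intensity on the vertical axis against the mean of the 6 Mcm genes (left) and Cdt1 (right), 1 point per array, with the 2 arrays of tumour 29 marked. The 3 osteoblast points lie at the left edge with Cdc6 between 6.32 and 6.51, and most primary tumours lie to their right and below them.

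Between cell lines and primary tumours 7 of the 20 licensing probe sets passed an adjusted p below 0.05, all higher in lines, where 16% of all probe sets did so in that direction. Of these only Cdc6 also passed the 2-fold limit. It was higher by 1.40 ± 0.39 in lines (SE; limma adjusted p 0.00632, and 0.0127 with no filter on dim probe sets), a 2.64-fold higher signal. In the high set, which holds all lines and 8 primary tumours, it was 1.32 and called. Lines and primary tumours nevertheless overlapped. Macrophage markers were called lower in lines for 12 of 12 genes and endothelial ones for 6 of 9, and their part in this result was not tested. Cdc6 was the only licensing probe set called in this comparison, where 4.52% of all probe sets were called higher; the calls over all probe sets split into 1234 higher and 2946 lower as deposited and into 1618 and 2326 under quantile normalization. Of the remaining licensing probe sets 18 measured higher and 1420029_at of Mcm3 lower by 0.16, with a median over the 20 of 0.50 beside -0.09 for all probe sets. Mcm7 came nearest to a call, with 0.99 ± 0.24 on 1416030_a_at and the lowest adjusted p of the 20 (0.00228). It was 1.07 and called under 75th percentile scaling. It was also called without line 176 (1.03) or 182 (1.16) and without primary tumour 29, 179, 182, 183, 330 or 353 (1.01 to 1.04), which makes 2 calls in place of 1. Without line 182 there were 3 calls, with Mcm6 at 1.01. The other direction was called for 10.8% of all probe sets and for 0 of these.

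Secondary tumours did not part from primary tumours in any licensing probe set. All 20 differences were positive, between 0.04 and 0.79 with Cdc6 the largest at 0.79 ± 0.39 (SE; limma adjusted p 0.511), and 18 were positive under 75th percentile scaling. This rested on secondary tumour 29: without it 10 were positive and 10 negative, with a median of -0.0005 against 0.23. With the tumour number as a fixed block on the paired arrays 13 were positive and 7 negative, with a median of 0.12. In this comparison 0.00732% of all probe sets were called, 2 in number, or 4 with the tumour number as a block. No licensing probe set reached an unadjusted p below 0.05. Lines over secondary tumours also gave 0 calls, with 0 unadjusted p below 0.05, while 17.6% of all probe sets were called. Those calls split into 1275 higher and 3531 lower as deposited, 1837 and 2731 under 75th percentile scaling and 1842 and 2505 under quantile normalization.

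Secondary tumours carry the numbers of 4 of the primary tumours, so single tumours can be followed. Tumour 29 was the brightest primary tumour on 15 of the 20 licensing probe sets, with tumour 330 brightest on the other 5, and its transplant was the brightest secondary tumour on 19. The mean log2 level of the 6 Mcm genes was 10.68 in transplant 29 and 10.74 in primary tumour 29, while the other secondary and primary tumours lay below both. Over the 20 probe sets the median of transplant minus primary tumour was 0.07 for number 29 and 0.25 for number 64. Number 94 gave the highest median, 0.63 with 19 of 20 positive, and number 66, labelled as coming from a cell line, gave -0.32 with 2 of 20 positive. These are differences between 2 arrays and carry no error.

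**Figure D4:**
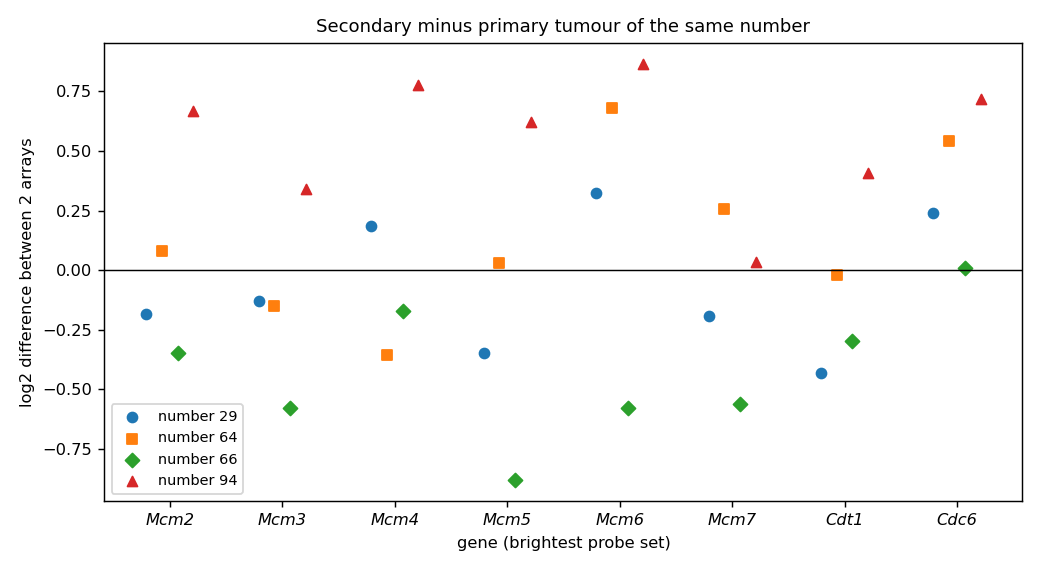
Log2 difference between 2 arrays that carry the same number, for the brightest probe set of each licensing gene: secondary minus primary tumour, for numbers 29, 64, 66 and 94, each with its own marker. Number 94 lies above 0 for all 8 genes and number 66 below 0 for all but Cdc6, at 0.01.

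Among the 15 primary tumours the 8 genes tended to be high or low together. All 28 pairs had a positive Pearson's r, between 0.33 and 0.87 with a median of 0.66, and 19 passed an adjusted p below 0.05 in a two-sided permutation test over the 28 pairs, while 10 did by Spearman's rho. The closest pair was Mcm5 with Cdt1, at r = 0.87 and rho = 0.83 (permutation p 9e-05 and 0.00025, adjusted 0.00252 and 0.007). The loosest pair was Mcm3 with Mcm7, at r = 0.33 and rho = 0.19 (permutation p 0.237 and 0.489, adjusted 0.237 and 0.489). Much of this rested on tumour 29. Without the 2 tumours farthest from the median, which included 29 for all 28 pairs, r ran from -0.08 to 0.80 with a median of 0.30, and 26 pairs were positive.

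Mcm5 with Cdt1 held at r = 0.74 without those 2 tumours. Within the high set of 8 tumours 22 of 28 pairs were positive with a median r of 0.35, and Mcm7 with Mcm4 was lowest at -0.48. Within the low set of 7 tumours all 28 were positive with a median of 0.84, and without tumour 29 there 24 were positive with a median of 0.47. Of its 7 pairs Cdc6 passed an adjusted p below 0.05 in 5 by Pearson's r and in 3 by Spearman's rho, most closely with Mcm3 at r = 0.79 and rho = 0.80 (permutation p 0.00054 and 0.00069, adjusted 0.00358 and 0.00966), and at 0.75 without the 2 farthest tumours. With Mcm7 and Cdt1 it did not pass (r = 0.46 and 0.45, adjusted permutation p 0.0947 and 0.101), and r was -0.21 with both in the high set, against 0.81 and 0.78 in the low set.

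**Figure D5:**
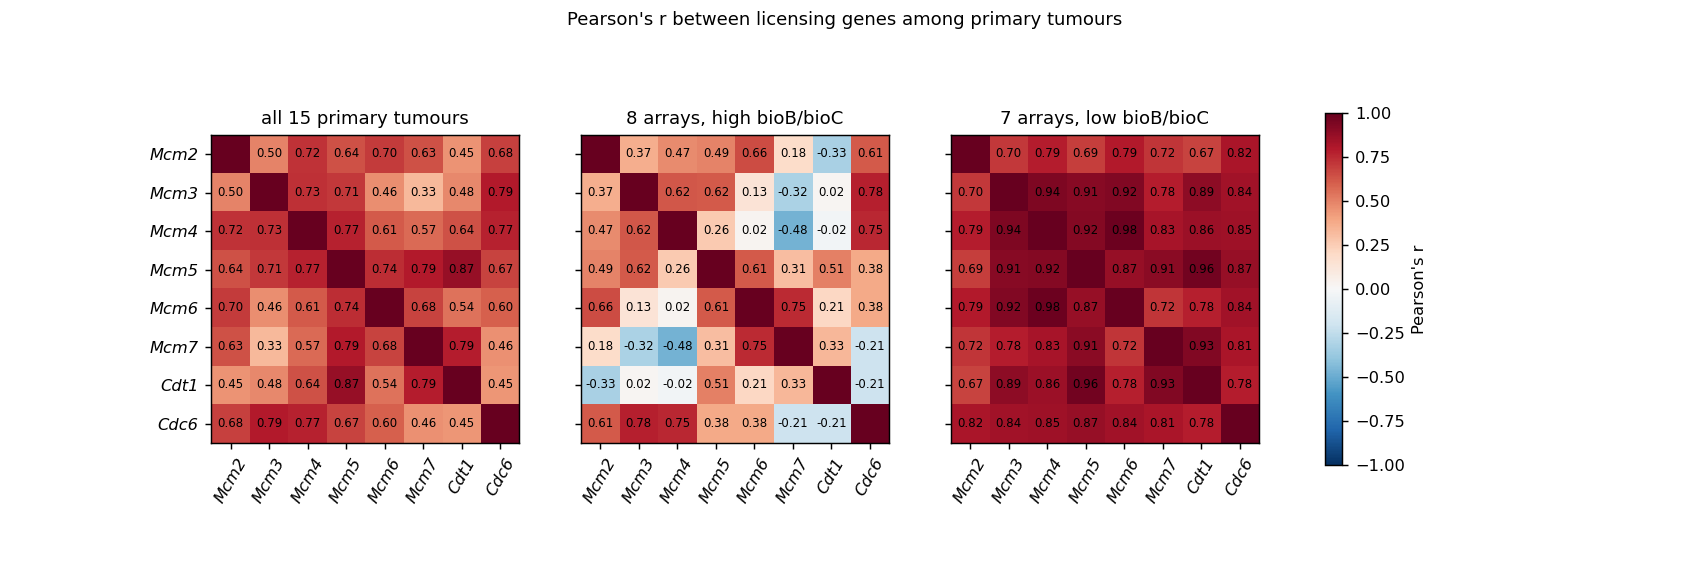
Pearson's r for each pair of the 8 licensing genes over all 15 primary tumours (left), the 8 arrays with a high control ratio (middle) and the 7 with a low one (right); the colour scale runs between -1 and 1. All pairs are above 0 on the left and on the right, where tumour 29 is included, and 22 of 28 in the middle.

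The same tumours were set against lists of other genes. With the mean of 15 mitosis genes the 8 licensing genes had r between 0.48 and 0.82, and 5 passed an adjusted p below 0.05 over 32 relations. Mcm7 was closest, at r = 0.82 and rho = 0.81 (permutation p 0.00014 and 0.00053, adjusted 0.00448 and 0.017), and at 0.70 without tumours 12 and 29. Without those 2 tumours r for the other genes was as low as 0.16, for Mcm4, and it was 0.29 for Cdt1. In the high set r was above 0 for 7 of the 8 genes and -0.21 for Cdt1. With endothelial markers Mcm3 and Mcm4 passed at r = 0.64 each (adjusted permutation p 0.0491 for both), which became 0.53 and 0.44 without tumours 183 and 29. No licensing gene passed with macrophage or skeletal muscle markers, where r ran from -0.18 to 0.37 and from -0.24 to 0.12. With muscle markers the sets differed in sign: r was below 0 for 6 of the 8 genes in the high set, lowest for Cdc6 at -0.87, and above 0 for 8 of 8 in the low set, where Cdc6 had 0.40. That difference was not tested. The low-set values include tumour 29, highest there in muscle markers (10.90) and in the mean of the 6 Mcm genes (10.74). They were not taken without it, so the sign in that set may rest on 1 tumour. By Spearman's rho 1 of the 32 relations passed, Mcm7 with mitosis.

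Genes outside the licensing set whose pattern was most like the mean of the 6 Mcm genes were sought over 26 arrays, each centred on its group mean, among 12879 genes. The nearest 8 by Pearson's r were Exo1 (0.91), Sass6 (0.88), Tex30 (0.88), Rfc5 (0.88), Ncapg (0.87), Rad54l (0.87), Pola1 (0.87) and Brca1 (0.87). Exo1 is a DNA repair exonuclease, Rfc5 a subunit of the clamp loader, Pola1 the catalytic subunit of the primase polymerase, and Ncapg a condensin subunit. Cdt1 and Cdc6 themselves reached 0.76 and 0.75 on this measure. The arrays share the tumour 29 pair, and the values are a description.

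The surrounding pathway was read from lists of genes around licensing, each gene by its brightest probe set. Over all 12887 genes so read, 1.54% were called higher and 6.47% lower in lines over osteoblasts, 7.85% and 10.9% in secondary tumours and 6.63% and 11.9% in primary tumours. None of the 6 origin recognition genes was called in any comparison: Orc1 measured -0.11, 0.07 and 0.07 and Orc6 0.66, -0.02 and -0.20 in lines, secondary tumours and primary tumours over osteoblasts. The medians of the 6 were -0.09, -0.14 and -0.42 there and 0.56 in lines over primary tumours, where 5 of the 6 had an adjusted limma p below 0.05 and were higher, beside 17.8% of all genes. Against osteoblasts 0 passed that p in lines, 2 in secondary tumours (Orc3 and Orc4) and 3 in primary tumours (Orc3, Orc4 and Orc5), all lower, beside 19.8% of all genes in secondary and 25.4% in primary tumours. These 3 genes are named after their values were seen. Of 10 genes that control licensing, Skp2, the adaptor that destroys Cdt1 among other substrates, rose by 1.57 ± 0.42 in secondary tumours and 1.74 ± 0.35 in primary tumours (SE; limma adjusted p 0.00437 and 0.000226) and measured 0.85 in lines. Dtl was called higher in secondary tumours only, at 1.18, and that difference between groups was not tested. Geminin, the inhibitor of Cdt1, measured 0.56, 0.61 and 0.36 in lines, secondary and primary tumours and was called in none. Of the helicase relatives and partners measured, 2 of 4, 0 were called.

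Of 14 measured genes that activate the loaded helicase, the kinase Cdc7 was called higher in all 3 groups, by 1.04 ± 0.31 in lines, 1.38 ± 0.31 in secondary tumours and 1.10 ± 0.26 in primary tumours (SE; limma adjusted p 0.0281, 0.00123 and 0.0012). Cdc7 averaged 5.50 in osteoblasts, under the filter level of 5.72, so it entered the tests through groups in which it is higher. Its partner Dbf4 was called in secondary tumours at 1.12 and measured 0.62 in lines and 0.74 in primary tumours, and Clspn, a checkpoint mediator, was called in secondary tumours at 1.52. Cdc45 measured 0.98, 0.92 and 0.55 in lines, secondary and primary tumours, without a call. Of 20 genes of fork synthesis 0, 3 and 0 were called higher in those groups; the 3 were Rfc5 (1.28), Pole (1.27) and Pola1 (1.05). Pcna, the sliding clamp, measured 0.78, 0.41 and 0.27. Between lines and primary tumours 4 of the 20 were called higher in lines, Rpa1 (1.18), Pold2 (1.13), Prim1 (1.13) and Rpa3 (1.09), beside 4.77% of all genes called higher and 7.08% lower.

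Of 24 genes of E2F and G1/S control, Cdkn2a, the locus of p16 and p19Arf, rose by 3.20 in lines, 2.93 in secondary tumours and 2.29 in primary tumours. E2f1 measured 0.48, 0.79 and 0.68 in that order, past the p threshold each time (limma adjusted p 0.0183, 7.11e-05 and 2.68e-05) but under 2-fold. E2f2 was called in lines at 1.71 and measured 0.98 and 0.56 in secondary and primary tumours. Its mean of 5.34 in osteoblasts lay under the filter level of 5.72, so it too entered the tests through groups in which it is higher. E2f8 and Rbl1 were called higher in secondary tumours, at 1.33 and 1.01. The D-type cyclins Ccnd1 and Ccnd2 fell in both kinds of tumour, with differences of -1.94 and -5.29 in secondary and -1.64 and -3.69 in primary tumours, and measured -1.22 and -0.76 in lines. Rb1 measured -0.07, 0.35 and 0.17. The E-type cyclins Ccne1 and Ccne2 were called in none, with Ccne1 at -0.30, 0.85 and 0.80 and Ccne2 at 0.66, 0.67 and 0.57. Against primary tumours, lines had E2f2 and Ccnd2 called higher (1.15 and 2.93) and Ccne1 lower (-1.10).

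Mitosis genes give a different proliferation readout of the same arrays. Of 15 measured, 0 were called in lines (0 at an unadjusted limma p below 0.05), 4 in secondary tumours (Nusap1 at 1.72, Cenpf at 1.42, Aurka at 1.32 and Cenpe at 1.26) and 0 in primary tumours (3 at an unadjusted p below 0.05), with medians of -0.03, 0.66 and 0.25. Mki67, the common proliferation marker, measured -0.33, 0.66 and 0.25 in lines, secondary and primary tumours over osteoblasts and was called in none. In lines 4 of the 8 licensing genes, read by their brightest probe set, were called higher beside 0 of these 15 and 1.54% of all genes. The lists were not tested against each other, and lines and osteoblasts also differ in control set. Lines over secondary tumours had 3 mitosis genes called lower, Cenpf (-1.65), Ttk (-1.49) and Nusap1 (-1.0001), where 4.83% of all genes were called higher and 8.55% lower. From the other lists that comparison called Ccnd2 (4.53), Rpa3 (1.08), Pold2 (1.07) and E2f6 (1.01) higher, and Cdkn2c (-1.41) and Ccne1 (-1.15) lower.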

How the data were processed

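RNA was measured on 26 Affymetrix mouse arrays of 45101 probe sets, of which 64 are controls, with 1 sample to an array. The intensity values were deposited by the authors as 1 linear value per probe set; the background correction, scaling and summary behind them are not stated in the labels or files used here, and they were not normalized again. Intensities below the 20th percentile of all values, 12.5, were raised to it and log2 was taken. Probe sets with 3 or more arrays above the overall median, 52.6, were kept. All 26 arrays entered 1 limma model (limma 3.58.1, R 4.3.3) of the 4 groups, with Benjamini-Hochberg adjustment over all 27308 kept probe sets. Gene names came from the platform table, updated by gene ID through RefSeq where possible: 34958 probe sets had 1 symbol, 932 had several and 9211 had none. A gene is read by its brightest kept probe set. The script was tested on simulated data.

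The 8 genes, the pathway lists and the marker lists were chosen with earlier results of these data known. Outside the 8, up to 4 called genes with the largest difference in each list, direction and comparison were named, together with 13 genes named against osteoblasts whatever their value and the 8 genes most alike to the Mcm mean. Secondary and primary tumours with the same number are paired: their deviations from the group means correlated at 0.39, 0.34, 0.23 and 0.62 for numbers 29, 64, 66 and 94, and the labels call 3 of the secondary tumours transplants. Alternatives covered the floor, filter, scaling, array weights, control set, number block and each sample left out. The number of arrays, not read depth, limits precision. Promoter windows are RefSeq's, GRCm38.p6.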

Additional observations from a re-analysis of the deposited data

Results flagged for a closer look

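Mcm2 on probe set 1448777_at read 8.91 in cell line 182, while the other 3 lines lay between 9.48 and 9.58. The gap to the nearest line was 0.852 of the group's whole range, above Dixon's critical value. This was 1 of 40 groups of 4 to 10 samples examined, and chance flags about 1 in 20. Line 182 was also the lowest line on 16 of the 20 kept licensing probe sets.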

How the results depend on the processing

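Over all probe sets the counts were 6053 for primary tumours over osteoblasts, 2008 for lines and 6241 for secondary tumours over osteoblasts, 4180 for lines over primary tumours and 4806 for lines over secondary tumours. They were 3543, 1328, 3609, 2417 and 2689 in that order with the filter at the 75th percentile, and 2378, 1059, 2381, 1514 and 1697 with 1 probe set a gene. Lines over secondary tumours gave 2252 with the control set as a term. Secondary over primary tumours had 2, and 1 with the floor at the 40th percentile, the higher filter or 1 probe set a gene, 4 with only the groups compared, 5 with the control set as a term and 10 in the low set, with a range of 2 to 4 leaving out 1 array.

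Of the 20 licensing probe sets, 5 were called in primary tumours over osteoblasts, and 3 with array weights or without both arrays of tumour 29, with a range of 3 to 6 leaving out 1 array. Lines over osteoblasts had 12 of 20, and 7 of 20 with the control set as a term. With 1 probe set a gene, where only 8 are tested, they had 4 of 8. Secondary tumours over osteoblasts had 8 of 20, and 3 of 20 without both arrays 29, with a range of 3 to 11. With 1 probe set a gene they had 3 of 8. Lines over primary tumours had 1, against 0 with the higher filter, which removes Cdc6, 2 with 75th percentile scaling or without both arrays 29, and 1 to 3 leaving out 1 array. Relations between licensing genes numbered 19, against 10 by Spearman's rho, and relations to marker lists 7, against 1.

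Signs turned as follows. In primary tumours over osteoblasts Mcm5 1415945_at (-0.06) was 0.046 with 75th percentile scaling, 0.14 with quantile normalization and 0.090 for the primary tumours of the high set, and ran from -0.17 to 0.026 leaving out 1 array; 1436808_x_at (0.09) was -0.036 without both arrays 29 and ran from -0.036 to 0.16. In lines over osteoblasts Cdc6 (-0.02) was 0.17 with scaling, 0.065 with quantile normalization and 0.024 with array weights, and ran from -0.26 to 0.22. In secondary tumours over osteoblasts Mcm5 1415945_at (0.26) was -0.11 without both arrays 29 and ran from -0.11 to 0.51. For all of these the cause was not tested.

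Differences between secondary and primary tumours, and between lines and secondary tumours, turned sign more often. Positive were 20 of 20 in secondary over primary tumours, 13 of 20 with the fixed replicate block, 8 of 8 with 1 probe set a gene and 10 to 20 of 20 leaving out 1 array, lowest without secondary tumour 29. In lines over secondary tumours 18 of 20 were positive, 8 of 8 with 1 probe set a gene and 11 to 19 of 20 leaving out 1 array, lowest without secondary tumour 66. In lines over primary tumours 19 of 20 were, and 8 of 8 with 1 probe set a gene. In secondary over primary tumours reversed differences were -0.0063 for Mcm3 1420029_at and -0.034 for Mcm3 1426653_at with scaling. With quantile normalization they were -0.0022 for Mcm3 1420029_at and -0.0021 for Mcm3 1426653_at. With the fixed replicate block they were -0.0091 for Mcm3 1420029_at, -0.085 for Cdt1 1424143_a_at, -0.13 for Mcm3 1426653_at, -0.29 for Mcm4 1436708_x_at, -0.15 for Mcm5 1436808_x_at, -0.12 for Mcm7 1438320_s_at and -0.12 for Mcm7 1439269_x_at. With the random replicate block they were -0.016 for Mcm3 1426653_at. With the control set as a term they were -0.077 for Mcm4 1436708_x_at. In the low set they were -0.077 for Mcm4 1436708_x_at. Without both arrays 29 they were -0.018 for Mcm3 1426652_at and -0.11 for Mcm3 1426653_at. Leaving out 1 array they ran from -0.053 to 0.57 for Mcm5 1415945_at, -0.026 to 0.397 for Mcm7 1416031_s_at, -0.0080 to 0.46 for Mcm4 1416214_at, -0.033 to 0.36 for Mcm3 1420028_s_at, -0.0055 to 0.28 for Cdt1 1424143_a_at, -0.012 to 0.39 for Cdt1 1424144_at, -0.067 to 0.38 for Mcm3 1426652_at, -0.16 to 0.27 for Mcm3 1426653_at, -0.035 to 0.58 for Mcm5 1436808_x_at and -0.042 to 0.45 for Mcm2 1448777_at. In lines over secondary tumours reversed differences were 0.12 for Mcm4 1436708_x_at with scaling. With the random replicate block they were 0.21 for Mcm4 1436708_x_at. With the control set as a term they were -0.13 for Mcm3 1420028_s_at, -0.26 for Mcm3 1426652_at and 0.42 for Mcm4 1436708_x_at. With array weights they were -0.11 for Mcm6 1438852_x_at. Without both arrays 29 they were 0.11 for Mcm4 1436708_x_at. Leaving out 1 array they ran from -0.048 to 0.61 for Mcm6 1416251_at, -0.039 to 0.35 for Mcm3 1420028_s_at, -0.084 to 0.34 for Mcm3 1426653_at, -0.058 to 0.37 for Mcm2 1434079_s_at, -0.18 to 0.11 for Mcm4 1436708_x_at, -0.013 to 0.37 for Mcm7 1438320_s_at, -0.16 to 0.27 for Mcm6 1438852_x_at, -0.12 to 0.22 for Mcm7 1439269_x_at and -0.024 to 0.397 for Mcm3 1449705_x_at. The cause was not tested.

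With the number as a block, fitted on the paired arrays, 4 probe sets were called between secondary and primary tumours and 0 licensing ones. Lines 176, 179 and 182 carry numbers of primary tumours, and their deviations correlated with those of these tumours at 0.047, 0.047 and 0.016. These values cannot tell whether a line came from the tumour of its number, since tumours also hold other cell types. For lines over primary tumours the fixed replicate block gave 2389 calls in place of 4180, and Mcm3 1420029_at was 0.072 against -0.16. With a random block over all arrays Cdc6 in lines over osteoblasts was 0.14.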
